A study of Drosophila melanogaster with 23 samples.

Results

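Among 32161 probes in the table of log2 values deposited for a Drosophila cold shift experiment, 59 had a strong early rise at 14 °C that had faded by more than 50% at 72 h. The 59 probes were chosen by their measured values. For every probe, the mean of each group at 14 °C was set against the mean of 6 arrays at 25 °C. A log2 change of at least 1 (a fold of 2) was required at 4 h or 12 h, whichever was larger, with every array of that time above all 6 arrays at 25 °C. The change at 72 h had to be less than 50% of this early maximum. Of 277 probes with the early change, 269 met the requirement on single arrays and 61 of these also faded. After 2 probes had been left out by the rule, 59 remained, 11 with the maximum at 4 h and 48 with the maximum at 12 h.

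The cells were S2R+ cells, a single cell line with features of hemocytes, the blood cells of the fly. All cultures first grew at 25 °C, and no other agent is named. Cultures were then kept at 14 °C for 4 h (5 arrays), 12 h (3 arrays), 24 h (5 arrays) or 72 h (4 arrays), or were sampled at 25 °C, after 12 h more (12h_25C, 3 arrays) or at once (0h, 3 arrays). The arrays of 12h_25C and 0h together form the 25 °C arrays. Replicates at a time point were biological replicates according to the methods of the study. Of 14 hemocyte markers, 2 could be paired with a probe, the transcription factor gene srp and the collagen gene vkg, and both were well above background on all 23 arrays, at a mean log2 intensity of 11.24 and 11.75 at 25 °C. The yolk protein gene Yp1, a fat body marker, was well above background on 0 arrays and the germline gene vas on 2 arrays. Of the neuronal genes, Syt1 was above background on all 23 arrays, para on 17 and brp on 5, and no marker gene was called at any time.

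As background, fly cells take the temperature of their surroundings, so that a shift to the cold slows transcription, translation and RNA turnover together. Transcript levels can overshoot after a shift and then settle at a new level. The best known temperature response is that to heat, in which the factor Hsf induces heat shock proteins, chaperones that keep other proteins from clumping, and then shuts off again.

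Gene names were available for 12 of the 59 probes, with 12 different genes, since only 3920 of 32162 probes could be named. The 12 genes comprise 10 that code for proteins and 2 that do not. Hsp26 codes for a small heat shock protein. Hr51 is a nuclear hormone receptor, CG32944 is annotated as a protein kinase and mew codes for an alpha integrin that binds laminin. ND-B16.6 is a subunit of mitochondrial complex I. asRNA:CR43465 is an antisense RNA, and lncRNA:CR31044 is a non-coding RNA whose locus overlaps the microRNA genes mir-279 and mir-996. CG34453, CG34279, CG12868 and CG8298 are given here by annotation symbol, with no role stated. The other 47 members are given by probe and transcript identifiers.

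On the mean over all 59 members, the 3 arrays at 12 h were the highest, with log2 changes of 1.19, 1.26 and 1.33 against the mean of the 25 °C arrays. The 5 arrays at 4 h had 1.01, 0.73, 1.04, 0.69 and 1.14, the 5 arrays at 24 h had 0.93, 0.67, 1.01, 0.95 and 1.10, and the 4 arrays at 72 h had 0.16, 0.57, 0.68 and 0.26. Single arrays at 25 °C lay between -0.25 and 0.18. One array at 72 h therefore fell within the range of the 25 °C arrays, whereas all arrays at 4 h, 12 h and 24 h lay above it. The median change of the members in the limma fit was 0.85 at 4 h and 1.19 at 12 h, then 0.90 at 24 h and 0.46 at 72 h, while the median over all probes was within 0.01 of 0 at each time. The values at 4 h, 12 h and 72 h chose the members and are a description only.

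**Figure D1:**
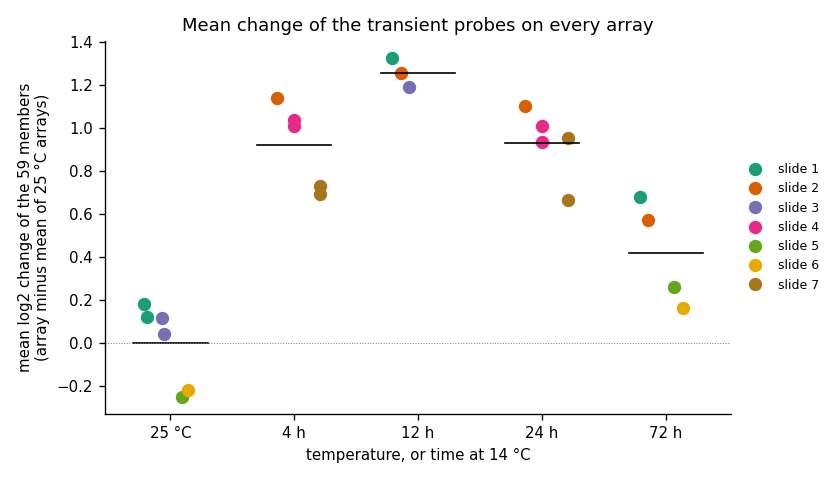
Mean log2 change of the 59 members on each of the 23 arrays (y axis, against the mean of the 6 arrays at 25 °C), with 25 °C and the times at 14 °C on the x axis. Points are arrays coloured by slide and lines are group means. The 12 h arrays sit at 1.19 to 1.33, and at 72 h the arrays on slides 5 and 6 (0.26 and 0.16) lie below those on slides 1 and 2 (0.68 and 0.57).

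The members were measured mostly well above background. Their mean log2 intensity at 25 °C ranged between 6.28 and 12.24 with a median of 8.97, against a median of 6.34 over all probes. On every one of the 23 arrays, 56 members were well above background, and each of the remaining 3 was well above background on 1 to 5 of the 25 °C arrays and on every 24 h array. The SD over the 6 arrays at 25 °C had a median of 0.26 for the members and 0.13 over all probes.

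The 24 h arrays were not used in the selection and show how much of the rise was left between the early maximum and 72 h. All 59 members were higher at 24 h than at 25 °C, and 25 of 59 were called higher (limma with Benjamini-Hochberg adjustment, p under 0.05 with a fold of 2 or more), against 0.886% of all 32162 probes. Without the requirement for the fold, 52 of 59 members passed, against 7.52% of all probes. In 45 of 59 members every 24 h array exceeded every 25 °C array, which held for 4.75% of all probes. The same 25 °C arrays entered the selection, so that these counts are not fully independent of it. Each 24 h array also shared its slide with a 4 h array, and the 4 h arrays entered the selection. Called members were 3 of 11 with the maximum at 4 h and 22 of 48 with the maximum at 12 h. The change at 24 h was below that at 12 h in 57 of 59 members and below that at 4 h in 27 of 59, and the change at 72 h was below that at 24 h in 59 of 59. The rule chose the members by their early maximum and their level at 72 h, so that these counts are a description only.

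At 24 h, a median of 71.9% of the early maximum was left on the log2 scale, with a range between 27.6% and 100%. In 7 members less than 50% was left. These were both probes of the transcript FBtr0333594 and the probes A_09_P025661, A_09_P218980, A_09_P056336, A_09_P051611 and A_09_P045906. At 72 h a median of 38.9% was left, as the rule required less than 50%. The 208 probes that met the requirements for the early rise but did not fade had a median change of 1.28 at 24 h and 1.19 at 72 h. Of these, 167 were called higher at 24 h, against 0.886% of all probes. Their early rise and their 72 h level chose them, so that these values are a description only. Both sets share the arrays at 25 °C and were not tested against each other.

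**Figure D2:**
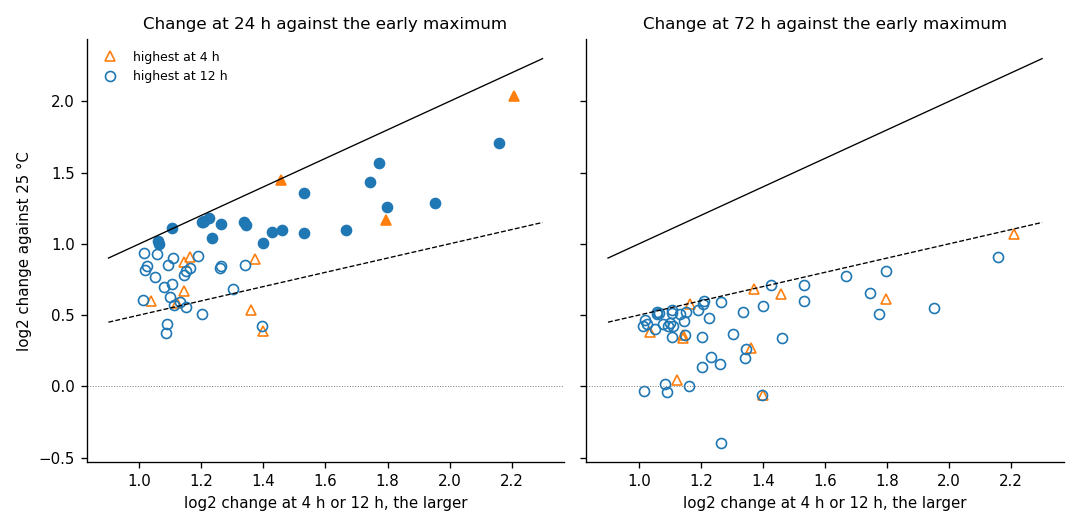
Log2 change against 25 °C at 24 h (left) and 72 h (right) on the y axis, plotted against the larger of the changes at 4 h and 12 h on the x axis, 1 point per member. Triangles have the maximum at 4 h and circles at 12 h, filled points in the left panel are the 25 members called higher at 24 h, and the solid and dashed lines mark 100% and 50% of the early maximum. The 24 h points lie mostly between the lines and the 72 h points below the dashed line, as the rule required.

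The count at 24 h depended on the background correction and on the arrays of slides 5 and 6. It was 28 of 59 with slide as a block, for which 1.04% of all probes were called higher. It was 15 of 59 without the arrays on slides 5 and 6, and 12 of 59 with strong local backgrounds left as scanned. For these settings the share over all probes was not counted, so that a general loss of calls cannot be told apart.

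The level at 72 h differed between slides. The lowest arrays at 25 °C, 12h_25C replicate 2 (-0.25) and 0h replicate 2 (-0.22), were on slides 5 and 6, and so were the 2 lowest arrays at 72 h. Within a slide, the members exceeded the 25 °C arrays at 72 h by a mean of 0.53 on slide 1 (55 of 59 higher), 0.51 on slide 5 (53 of 59) and 0.38 on slide 6 (52 of 59). On the same basis the 12 h arrays were higher by 1.17 on slide 1 and 1.11 on slide 3, with 59 of 59 members higher on both. The rule used the 12 h, 72 h and 25 °C arrays, so that these values are a description only. No slide held arrays of 25 °C together with 4 h or 24 h. Within the 2 scan dates, the 4 h arrays were higher by 0.95 and 0.99, the 24 h arrays by 0.97 and 0.95 and the 72 h arrays by 0.29 and 0.47.

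With slide as a block, the median change at 72 h was 0.51, a median of 45.1% of the early maximum was left, and 36 of 59 members had less than 50% left. Without slides 5 and 6, the corresponding values were 0.53, 48.3% and 30 of 59. The early maximum itself remained above 0 with the block in 59 of 59 members and reached 1 in 40 of 59, that is in 11 of 11 with the maximum at 4 h and 29 of 48 with the maximum at 12 h. For 4 h, the block links to 25 °C only through the 12 h and 72 h arrays on slide 2. Set against the 25 °C arrays of its own slide, a single 72 h array left 49 of 59 members (replicate 1), 42 of 59 (replicate 3) or 35 of 59 (replicate 4) under 50% of the early maximum. The part of the slides in the fading was not tested. At 72 h, 17 members had every array above every 25 °C array, and 7 had no such array. The share over all probes was not counted at 72 h, and the rule used the 72 h level, so that these numbers are a description only. The limma call was met by 1 of 59 members at 72 h, against 1.14% of all probes, and by 25 of 59 at 4 h (0.314% of all probes) and 55 of 59 at 12 h (0.905%). Nothing can be read from these 3 counts, since the same contrasts chose the members.

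The 2 groups at 25 °C differ in the time in culture and not in temperature. Between 12h_25C and 0h, 0 of 59 members were called higher and 0 of 59 lower in limma, against 0% of all probes in both directions. At an unadjusted p under 0.05, 1 member and 1303 of all probes passed. This member was A_09_P054321 (FBtr0076494), which was lower in 12h_25C by a log2 change of -0.24 (SE 0.0739, unadjusted p = 0.00453, adjusted p = 1 in limma). The median difference over the members was -0.05, and 21 of 59 were higher in 12h_25C. With 3 arrays in each group, the standard errors of the named members ranged up to 0.38, the value for Hsp26.

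Of the 12 members with a gene symbol, Hsp26 was the only one in the list of heat shock genes. Its log2 intensities at 25 °C ranged between 8.99 and 10.43 with a median of 9.59. They were 10.55, 10.16, 10.60, 10.52 and 10.99 at 4 h, 10.65, 10.84 and 11.12 at 12 h, 10.32, 9.92, 10.41, 11.30 and 11.04 at 24 h, and 9.93, 10.43, 10.81 and 9.71 at 72 h. The 12 h arrays lay above all 25 °C arrays in the rebuilt values, while 4 of 5 arrays at 4 h and 2 of 5 at 24 h did so. The highest of the 25 °C arrays, with 10.43 and 10.31, were both on slide 1. The change at 24 h was 0.92 ± 0.28 (SE, adjusted p = 0.0287) and missed the fold of 2. Blocking on slide gave 1.16 (adjusted p = 0.0539), and blocking on scan date gave 1.01 (adjusted p = 0.000421), which passed both requirements, as did the fits without 0h replicate 3 (1.04), 12h_25C replicate 3 (1.07) or 24h replicate 2 (1.09). Both requirements were also passed against 12h_25C alone (1.07, adjusted p = 0.0454).

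By the probe with the highest mean of each gene, no other measured heat shock gene was called higher at any time. Of 25 genes in the list, 13 were measured. In addition to Hsp26, which was called higher at 12 h, 3 were called lower at some time. The 12 h arrays chose Hsp26 as a member, so that nothing can be read from its 12 h call. DnaJ-1, a co-chaperone gene, was lower at 4 h by a log2 change of -1.15 ± 0.19 (SE, adjusted p = 0.000607), which 0.0622% of all probes were, and had a change of 0.56 at 12 h (adjusted p = 0.131). DnaJ-1 had 3 probes, and only the one with the highest mean is given. The study places DnaJ-1 together with Hsp26 in its cluster of transient increase in this time course. It also reports a general decrease of Hsp transcripts over this time course. In a separate array experiment after 24 h, it found heat-inducible Hsp genes, Hsp26 among them, lower at 14 °C than at 25 °C. The difference from the Hsp26 change of 0.92 at 24 h given above was not tested. The small heat shock protein genes Hsp23 (-1.95 ± 0.38, adjusted p = 0.000809) and Hsp27 (-1.24 ± 0.10, adjusted p = 2.88e-08) were lower at 72 h, when 0.97% of all probes were called lower. The median change of the 13 genes was -0.17 at 4 h and -0.24 at 12 h, then -0.13 at 24 h and -0.22 at 72 h. Hsp26 is flanked in the gene table by CG4461 and by the small heat shock protein gene Hsp67Ba, whose changes in the order of time were 0.01, 0.14, -0.40 and -0.44, none of them called.

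**Figure D3:**
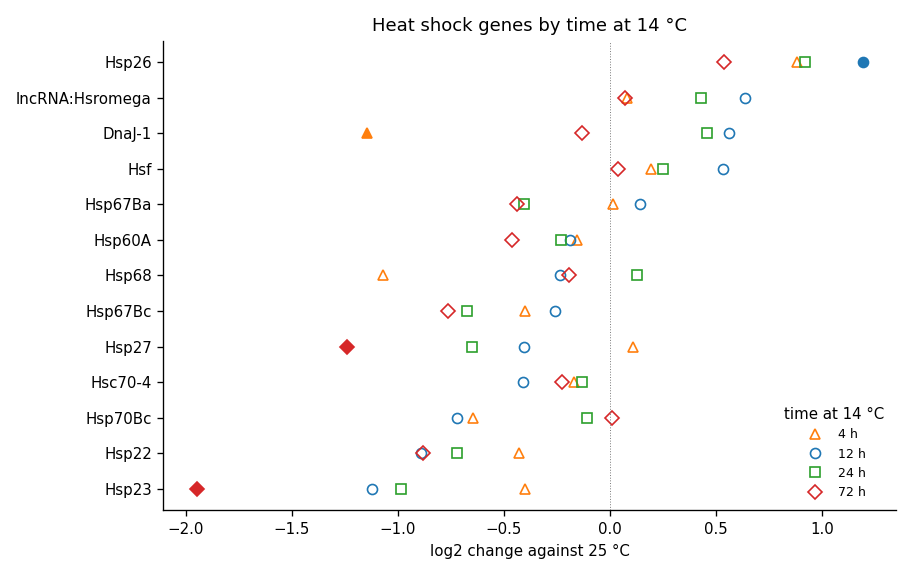
Log2 change against 25 °C (x axis) of the 13 measured heat shock genes (y axis) after 4 h (triangles), 12 h (circles), 24 h (squares) or 72 h (diamonds) at 14 °C. Filled symbols were called. Hsp26 is the only gene with a filled symbol to the right of 0, at 1.19 at 12 h, a time that chose it as a member.

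Hr51 belongs to the nuclear receptors, transcription factors that include the sensors of steroid hormones. On the 25 °C arrays its log2 intensity had a lowest value of 9.18, a median of 9.38 and a highest value of 9.78. At 4 h the arrays gave 10.62, 10.26, 10.56, 10.48 and 10.77, at 12 h 10.66, 10.71 and 11.00, at 24 h 10.44, 10.09, 10.48, 10.96 and 10.92, and at 72 h 9.57, 9.69, 10.27 and 9.29. All arrays at 4 h, 12 h and 24 h were above all 25 °C arrays, but at 72 h 1 of 4 was. Hr51 was called higher at 24 h (1.14 ± 0.18, SE, adjusted p = 7.91e-05), and 19.4% of its early maximum was left at 72 h, the lowest share among the members with a gene symbol.

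CG32944 had the largest early change of the named genes in the rebuilt values and was near background at 25 °C. Its log2 intensities at 25 °C were between 6.16 and 6.41 with a median of 6.27, and the probe was well above background on 1 of 6 of these arrays. At 14 °C it was well above background on all 17 arrays, with 8.23, 7.72, 8.19, 7.41 and 8.20 at 4 h, 8.01, 8.01 and 8.07 at 12 h, 7.66, 7.24, 7.72, 7.88 and 8.08 at 24 h, and 6.75, 6.96, 7.32 and 6.74 at 72 h. The groups did not overlap with 25 °C at any time. The change at 24 h was 1.43 ± 0.15 (SE, adjusted p = 8.62e-07). Its size depended on the background setting, with 2.53 for an offset of 0, 2.75 after scaling to the 75th percentile, and 0.93, below the fold of 2, with strong local backgrounds left as scanned. At 72 h 37.7% of the maximum of 1.74 at 12 h was left. A second probe of the same transcript was well above background on 0 arrays and had changes in the order of time of 0.18, 0.08, 0.23 and 0.01. In the gene table CG32944 overlaps CG31528, for which no probe was named.

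The antisense RNA asRNA:CR43465 had nearly equal levels at 4 h, 12 h and 24 h. At 25 °C its log2 intensities were between 6.35 and 6.67, with a median of 6.58. They were 8.13, 7.81, 7.91, 8.04 and 8.19 at 4 h, 7.91, 7.78 and 8.36 at 12 h, 7.91, 7.48, 7.99, 8.25 and 8.38 at 24 h, and 7.14, 7.08, 7.52 and 7.08 at 72 h. No array at 14 °C overlapped with 25 °C. The changes were 1.46 at 4 h and at 12 h, and 1.45 ± 0.14 at 24 h (SE, adjusted p = 1.43e-07), so that 99.2% of the maximum was left at 24 h and 44.4% at 72 h. With an offset of 0 the change at 24 h was 2.22, and after scaling to the 75th percentile it was 2.97. Its locus on chromosome arm 2L overlaps Ucp4B, a gene for a mitochondrial carrier of the uncoupling protein family, for which no probe was named.

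lncRNA:CR31044 lies on chromosome arm 3R and was highest at 4 h. The 25 °C arrays had log2 intensities between 7.01 and 7.38 with a median of 7.25. The other arrays had 8.47, 8.12, 8.40, 8.27 and 8.55 at 4 h, 8.10, 8.25 and 8.37 at 12 h, 8.34, 7.997, 8.36, 7.69 and 8.14 at 24 h, and 7.54, 7.94, 8.15 and 7.48 at 72 h. Every array at 14 °C exceeded every array at 25 °C. The change at 24 h (0.91 ± 0.13, SE, adjusted p = 2.28e-05) was below the fold of 2, which it exceeded with an offset of 0 (1.22), with no background correction (1.04), after scaling to the 75th percentile (1.54), against 0h alone (1.01) and without 24h replicate 4 (1.01). A second probe, for another transcript of this gene (NR_037769), was well above background on all 23 arrays and had changes in the order of time of 0.09, 0.08, 0.09 and -0.19. The microRNAs mir-279 and mir-996 were not examined.

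The integrin gene mew had a much smaller change at 4 h (0.45) than at 12 h (1.13). Its log2 intensities were between 10.61 and 11.25 at 25 °C with a median of 10.85, then 11.29, 11.04, 11.36, 11.31 and 11.62 at 4 h, 11.70, 12.17 and 12.15 at 12 h, 11.23, 11.02, 11.40, 11.77 and 11.90 at 24 h, and 11.08, 11.86, 11.47 and 11.13 at 72 h. Only the 12 h arrays were all above 25 °C. The change at 24 h was 0.59 ± 0.17 (SE, adjusted p = 0.0207), short of the fold of 2, and blocking on slide gave 0.47 (adjusted p = 0.217). Its locus on the X chromosome overlaps CG32639 and CG15742.

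ND-B16.6, the complex I subunit, had a maximum at 12 h in its member probe, while brighter probes of the same transcript had smaller changes. Its member probe had log2 intensities between 7.94 and 8.96 at 25 °C (median 8.52), 9.36, 8.91, 9.43, 8.73 and 9.66 at 4 h, 9.90, 10.06 and 9.95 at 12 h, 9.44, 9.08, 9.58, 9.64 and 9.84 at 24 h, and 8.53, 9.47, 9.36 and 8.79 at 72 h. It was called higher at 24 h (1.08 ± 0.21, SE, adjusted p = 0.000897). The fold of 2 was missed without 0h replicate 2 (0.98), 12h_25C replicate 2 (0.99) or 24h replicate 5 (0.996), with strong local backgrounds left as scanned (0.95) and without slides 5 and 6 (0.84). ND-B16.6 overlapped with 25 °C on 2 of 5 arrays at 4 h and on 2 of 4 at 72 h. Its locus on the X chromosome overlaps CG3847.

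**Figure D4:**
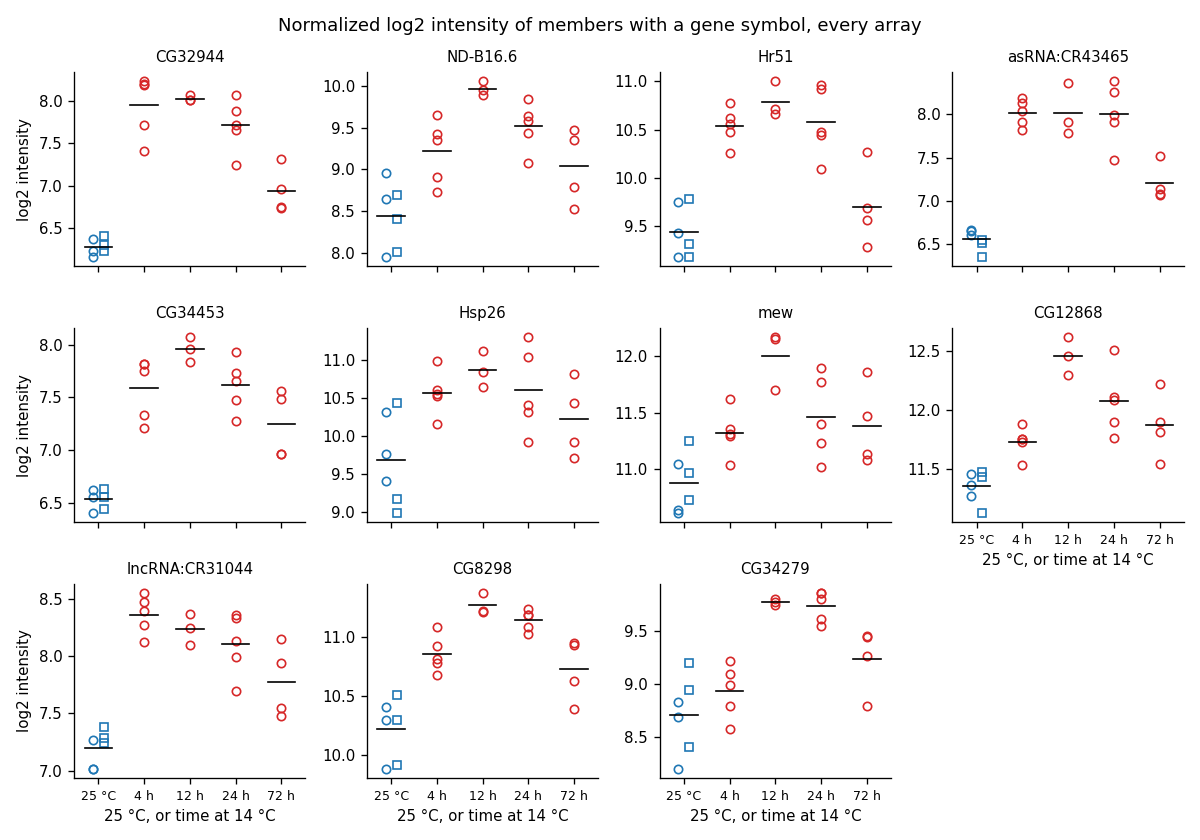
Normalized log2 intensity (y axis) of 11 members with a gene symbol on every array, at 25 °C (0h circles, 12h_25C squares) and at 4 h, 12 h, 24 h and 72 h at 14 °C (x axis). Black lines are group means, over both groups at 25 °C. CG32944, asRNA:CR43465, CG34453, CG12868 and lncRNA:CR31044 have no overlap between 25 °C and any time at 14 °C, whereas Hsp26 and mew overlap at 4 h, 24 h and 72 h.

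Among the genes known by annotation symbol, CG34453 and its neighbour CG34454 on chromosome arm 3L had similar courses. CG34453 had log2 intensities between 6.40 and 6.63 at 25 °C (median 6.55), 7.75, 7.33, 7.82, 7.21 and 7.82 at 4 h, 7.84, 8.07 and 7.96 at 12 h, 7.66, 7.27, 7.74, 7.47 and 7.93 at 24 h, and 6.96, 7.57, 7.49 and 6.96 at 72 h, with no overlap. The change at 24 h was 1.08 ± 0.14 (SE, adjusted p = 8.3e-06). In the deposited values the call at 24 h was lost (0.96), as with strong local backgrounds left as scanned (0.72), whereas the change was 1.78 with an offset of 0 and 2.47 after scaling to the 75th percentile. The second probe of CG34453 had changes in the order of time of 1.38, 1.74, 1.45 and 1.01 and was no member, since more than 50% was left at 72 h. CG34454 was excluded by a narrow margin on the same ground, with 51.3% left in the deposited values, and had changes in the same order of 1.20, 1.22, 1.15 (SE 0.0597, adjusted p = 6.77e-11) and 0.64.

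CG34279, on chromosome arm 3R, had the smallest change at 4 h of the named genes. At 4 h its arrays (9.22, 8.80, 9.10, 8.57 and 9.00) overlapped with the 25 °C arrays (8.20 to 9.20, median 8.76). At 12 h they had 9.78, 9.75 and 9.79, at 24 h 9.85, 9.55, 9.79, 9.61 and 9.86, and at 72 h 8.79, 9.44, 9.45 and 9.26. The change was 0.22 at 4 h, 1.06 at 12 h, 1.02 ± 0.15 at 24 h (SE, adjusted p = 4.59e-05) and 0.52 at 72 h. The change at 24 h was under the fold of 2 with a block for slide (0.996), with array weights (0.96), with strong local backgrounds left as scanned (0.92), against 12h_25C alone (0.88) and without slides 5 and 6 (0.82). It was so as well without 0h replicate 2 (0.92), 12h_25C replicate 2 (0.96), 24h replicate 1 (0.99) or 24h replicate 5 (0.99). Its locus overlaps Sur-8 and CG34280. The other 2 probes of CG34279 had 1.12 and 1.09 at 12 h and 1.02 at 24 h, and 0.66 and 0.81 at 72 h.

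CG12868 and CG8298, both on chromosome arm 2R, had mean log2 intensities of 11.35 ± 0.13 and 10.22 ± 0.26 at 25 °C (SD, n = 6). Their changes in the order of time were 0.38, 1.11, 0.72 and 0.51 for CG12868, and 0.64, 1.06, 0.93 and 0.51 for CG8298. At 24 h all arrays of both genes were above all 25 °C arrays, and both passed the adjusted p (0.000218 and 7.78e-06) but not the fold of 2.

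The 5 largest early changes were all in probes without a gene symbol. A_09_P078106 (FBtr0070641) had log2 intensities between 7.66 and 7.93 at 25 °C (median 7.75), 10.02, 10.34, 9.87, 9.94 and 9.77 at 4 h, 10.03, 9.74 and 9.67 at 12 h, 9.59, 9.81, 9.79, 10.31 and 9.60 at 24 h, and 9.17, 8.56, 9.03 and 8.65 at 72 h. It was the only member called at 72 h (change 1.07), and its change at 24 h was 2.04 ± 0.13 (SE, adjusted p = 1.16e-09). A_09_P118680 (FBtr0082107) had log2 intensities between 7.58 and 8.24 at 25 °C (median 7.91), 9.80, 9.75, 9.78, 9.52 and 9.74 at 4 h, 10.07, 9.96 and 10.12 at 12 h, 9.64, 9.50, 9.54, 9.63 and 9.68 at 24 h, and 8.72, 8.86, 8.98 and 8.62 at 72 h. Its change at 24 h was 1.71 ± 0.09 (SE, adjusted p = 1.31e-10). For both probes every array at 14 °C was above every array at 25 °C. The changes at 12 h and 24 h were 1.95 and 1.29 for A_09_P135835 (FBtr0301699) and 1.80 and 1.26 for A_09_P199160 (FBtr0085217). A_09_P011686 (FBtr0072267) was highest at 4 h with 1.80 and had 1.17 at 24 h. All 3 were called higher at 24 h. With strong local backgrounds left as scanned, A_09_P135835 (0.96) and A_09_P199160 (0.93) were below the fold of 2, and so was A_09_P011686 against 0h alone (0.98) and without slides 5 and 6 (0.99). After scaling to the 75th percentile, A_09_P135835 had 2.26 and A_09_P199160 had 2.18.

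For 3 transcripts, a pair of probes each were members. FBtr0333594 overlapped with 25 °C at 72 h. Its probe A_09_P112320 had log2 intensities between 7.21 and 8.16 at 25 °C (median 7.65), 8.98, 8.63, 9.15, 9.15 and 9.56 at 4 h, 8.65, 9.01 and 9.20 at 12 h, 7.85, 7.68, 8.08, 8.27 and 8.52 at 24 h, and 7.45, 7.89, 8.09 and 7.11 at 72 h. Here all 4 h and 12 h arrays lay above the 25 °C arrays, 2 of 5 did at 24 h and 0 of 4 at 72 h. The change at 24 h was 0.39 ± 0.20 (SE, adjusted p = 0.265), and 0.42 ± 0.21 for the second probe A_09_P052761 (adjusted p = 0.245). With scaling to the 75th percentile these changes were 0.68 and 0.75, and 0.23 and 0.22 without slides 5 and 6, all below the fold of 2. The changes at 72 h were -0.06 for both.

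FBtr0113268 had nearly the same level at 12 h and 24 h. The probe A_09_P070376 had changes of 0.68, 1.23, 1.18 ± 0.14 (SE, adjusted p = 4.64e-06) and 0.48 in the order of time, and A_09_P219348 had 0.68, 1.20, 1.16 ± 0.15 (adjusted p = 1.09e-05) and 0.34. Both were called higher at 24 h. The third such pair, the transcript FBtr0088829, had changes at 24 h of 1.10 ± 0.20 (A_09_P216215, adjusted p = 0.000455) and 0.87 ± 0.09 (A_09_P024911, adjusted p = 3.38e-07), and the first reached the fold of 2. It missed this without 12h_25C replicate 2 (0.99) or 24h replicate 5 (0.97), with strong local backgrounds left as scanned (0.91) and without slides 5 and 6 (0.89), and the second probe exceeded it with an offset of 0 (1.14) and after scaling to the 75th percentile (1.39). A_09_P219348 was below the fold of 2 without slides 5 and 6 (0.95).

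Different probes of a gene agreed for some genes and disagreed for others. The counts below cover only other probes that did not meet the rule, so that agreement within the pairs of member probes is left out. For 15 genes or transcripts with members, at least 1 other probe that was no member was well above background on all arrays, with 20 such probes in total. At the time of the early maximum of the member, 9 of 20 had at least 50% of its change and 9 of 20 less than 25%. In 8 of 15 genes every other probe had at least 50%, and in 5 of 15 every other probe had less than 25%. Among those were FBtr0113268, lncRNA:CR31044, FBtr0085839 and FBtr0290076. These shares concern the early rise and not the fading. Of the other probes with at least 50%, A_09_P057081, A_09_P047991, A_09_P032586, A_09_P003566, A_09_P114290 and A_09_P032861 kept more than 50% of their own early maximum at 72 h. Their changes at 72 h were 0.96, 1.01, 0.93, 0.66, 0.81 and 0.43. The probes A_09_P061131, A_09_P007711 and A_09_P040171 kept less than 50%, with -0.18, 0.43 and 0.07 at 72 h.

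The member probe of ND-B16.6 had a log2 change of 1.53 at 12 h. The other 2 probes of the same transcript had changes of 0.15 and 0.39 at 12 h and of -0.08 and 0.01 at 24 h (adjusted p = 0.839 and 0.987). Their mean log2 intensity at 25 °C was 13.9 and 12.61, against 8.44 for the member probe. In the case of FBtr0085839, the member A_09_P104640 was higher by 1.16 at 12 h and 0.83 at 24 h, while the other probe A_09_P032971 had -0.23 at 12 h, -0.75 ± 0.13 at 24 h (SE, adjusted p = 0.000282) and -1.39 at 72 h. The mean log2 intensity at 25 °C was 8.35 for A_09_P104640 and 13.3 for A_09_P032971. In the case of FBtr0113268, 4 other probes on all arrays had changes between -0.43 and 0.16 at 12 h. The other probe of FBtr0290076 had an SD of 1.28 over the 25 °C arrays, the widest of these probes. Which exons the probes hit was not analysed here, and neither cross-hybridization nor transcript isoforms were tested. Each change of a member is therefore stated for its probe only.

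**Figure D5:**
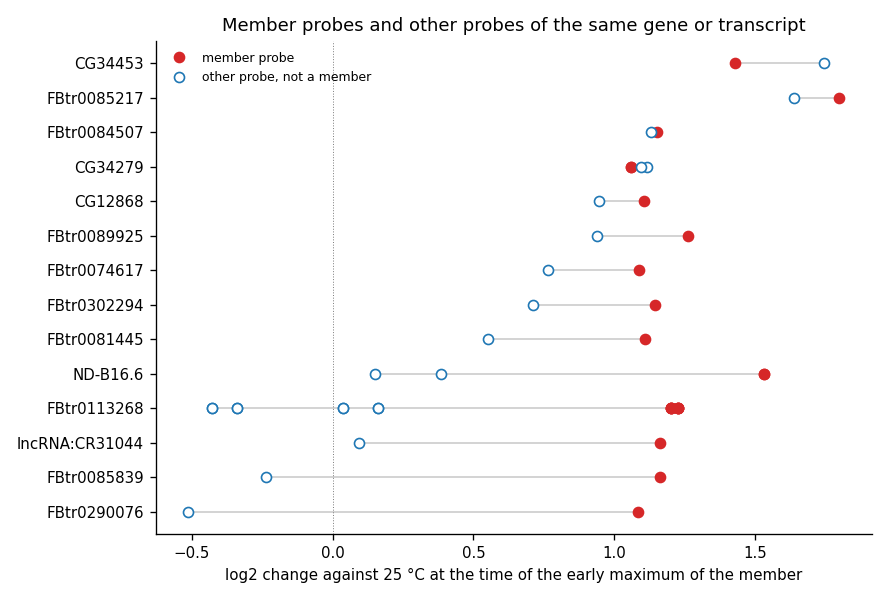
Log2 change against 25 °C (x axis) at the time of the early maximum, for member probes (filled) and for other probes of the same gene or transcript that are no members (open), for 14 genes or transcripts with another probe well above background on all arrays (y axis). In the upper rows both kinds of probes lie close together, and for FBtr0085839 and FBtr0290076 the open points lie at -0.23 and -0.51.

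The limits of the selection cut through continuous distributions. The 3 members with the smallest early change in the deposited values were A_09_P062481 (1.002), A_09_P035066 (1.003) and A_09_P066361 (1.005). Just outside were A_09_P050311 (0.997), A_09_P049876 (0.995) and A_09_P032991 (0.995). The largest shares left at 72 h were 49.4% for CG34279, 49.2% for A_09_P184645 and 49.2% for lncRNA:CR31044, and just outside were A_09_P224910 (50.3%), A_09_P067661 (51.1%) and CG34454. The smallest gaps between the lowest array of the peak time and the highest array at 25 °C were 0.53 for A_09_P022411, 0.54 for A_09_P045906 and 0.59 for A_09_P218980. Only 2 probes failed on this requirement alone, A_09_P015456 (gap -0.23) and A_09_P198665 (gap -0.84).

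Genes of other response pathways were examined for a similar course. In 9 further lists, between 2 and 13 genes of a list could be paired with a probe, and of the 12 members with a gene symbol Hsp26 was the only one in any of the 10 lists. The other 47 members could not be matched to a list. The study names smp-30, Keap1 and Ets21C among its stress genes with a transient increase. They are in these lists, but no probe could be paired with them here, so that their course was not examined. None of the measured genes of the lists for JNK and immediate early genes (5 of 25 measured), cold tolerance (6 of 15), ecdysone response (4 of 25), humoral immunity (3 of 33) and tyrosine and amino acid catabolism (5 of 27) was called in limma at any time. Over all probes, 0.0622% to 1.14% were called in a given direction at a given time, so that 0 calls among so few genes show little. Some of these genes passed the adjusted p without the fold of 2, in either direction. In the cold tolerance list, the changes in the order of time were 0.67, 0.64, 0.53 and 0.27 for Desat2, and -0.35, -0.66, -0.87 and -0.17 for regucalcin. In the JAK/STAT list (3 of 19 measured), vir-1, a gene induced by viral infection, was called higher at 24 h (1.16 ± 0.11, SE, adjusted p = 2.12e-07), and its other changes were 0.73 at 4 h, 0.94 at 12 h and 0.38 at 72 h. The peroxiredoxin gene Prx6c, one of several closely similar copies whose signals may mix, in the list for oxidative stress (8 of 33), was called lower at 24 h (-2.06 ± 0.23, adjusted p = 1.49e-06), as were 0.749% of all probes, and at 72 h (-3.92 ± 0.25, adjusted p = 5.5e-10). In the list for the unfolded protein response (2 of 24) and that for insulin, FOXO and starvation (13 of 24), Thor, which codes for an inhibitor of translation initiation and is in both lists, was called higher at 72 h (1.73 ± 0.18, adjusted p = 5.57e-07). The insulin-like peptide gene Ilp6 was called higher at 72 h as well (1.31 ± 0.26, adjusted p = 0.00076). No gene of the lists was called lower at 12 h, when 0.367% of all probes were.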

How the data were processed

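Cy3-labelled RNA of 23 cultures was hybridized to single-colour Agilent arrays (build dm3 per the file headers). The authors quantified each array with Feature Extraction 10.7.3.1, and no normalization between arrays is contained in the deposited intensities. The authors also deposited a table of log2 values, made with normexp, quantile normalization and surrogate variable analysis according to the methods, and this table chose the members. Its medians lay between 6.58 and 6.60, and each array correlated with the values rebuilt here (r between 0.992 and 0.999 across probes, slope between 0.94 and 0.96), so that it is neither centred by gene nor turned in sign. Whether the surrogate variable adjustment is contained in it remains unknown.

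Median spot and background intensities were corrected with normexp (offset 50), with 23 local backgrounds above 3 times the array median set to that median, quantile-normalized and taken to log2. Outlier spots were left out (51 missing probe values), and the median over the spots of a probe was used. All 32162 probes were tested with limma 3.58.1 in R 4.3.3 in a fit over 6 groups, and the script was tested on simulated data. P-values are two-sided and adjusted over all probes. Between 15060 and 18697 probes of an array (46.8% to 58.1%) exceeded background clearly, and 0 spots were saturated. The number of arrays limits the precision.

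The members and gene lists were chosen with earlier results of these data known. Named genes were members with a symbol, members sharing a transcript, the 5 largest early changes, probes next to a threshold of the rule, and called genes of the lists, for which the probe with the highest mean was taken. Desat2 and regucalcin, which were not called, were named after their values had been seen. Names came from tables of the study and from the RefSeq gene table (Release 6 plus ISO1 MT), without coordinates, since the builds differ. The values of 1 named member are not reported here. No sequences were given, and promoter motifs were not examined. Alternatives comprised the background correction, scaling, the deposited values, a filter on dim probes, each baseline group, blocks for slide, scan date and replicate number, array weights, and leaving out each array.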

Additional observations from a re-analysis of the deposited data

Results flagged for a closer look

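In 96 groups of 4 to 6 arrays, examined for the named members and for the mean over all members, 2 contained an array that stood apart from the rest of its group, and by chance about 1 in 20 groups would. On the 4 h arrays, A_09_P118680 had its lowest log2 intensity, 9.52, in replicate 4, and the next value was 9.74. On the 72 h arrays, asRNA:CR43465 had its highest log2 intensity, 7.52, in replicate 3, and the next value was 7.14. Both arrays remained above all arrays at 25 °C.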

How the results depend on the processing

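The number of members called higher at 24 h against 25 °C was 25, and it moved by more than 1.5 times to 12 with strong local backgrounds left as scanned, 52 with no limit on the fold, and 15 without the 4 arrays on slides 5 and 6, an alternative chosen after seeing the data. It ranged between 19 and 26 when each array was left out in turn, with the lowest count both without 12h_25C replicate 2 and without 24h replicate 5. Among the remaining alternatives it was between 21 (array weights) and 32 (75th percentile scaling), with 22 in the deposited values. The share of all probes called was counted only for the main fit, the slide block and the fit with no limit on the fold. The median change of the members at 24 h was 0.90 and moved by less than the spread between replicates (SD 0.15) under the alternatives run, with values between 0.80 and 1.04, and between 0.87 and 0.93 with each array left out. No member was called between 12h_25C and 0h in either direction under any alternative (0 with each array left out). On the rebuilt values 73 probes met the rule, among them all 59 members. This number of members fell to 21 without slides 5 and 6, and ranged between 39 and 59 with each array left out, with the lowest number without 72h replicate 1. The cause of these shifts was not tested. With the replicate number as a block (replicate block), 24 members were called at 24 h, with a median change of 0.88, and it changed no call of the 23 named probes at 24 h. Arrays of the same number in different groups correlated with r between -0.83 and 0.84 in their deviations, and 14 of 23 arrays correlated best with an array of their own number. The median r was 0.468 over 49 pairs of the same number, with 33 above 0.1, against -0.204 over 169 pairs of different numbers, with 74 above 0.1, and it was 0.535 over 25 pairs on the same slide. This is at most a hint from the data, since the labels give no shared culture or day. Arrays of the same number often shared a slide, as each 4 h and 24 h array of the same number did. The parts of number and slide in these correlations therefore cannot be told apart. Of 23 named probes under 12 alternatives at 24 h, some of them chosen after seeing the data, 251 of 276 values kept their side of the threshold, 8 newly passed it, 17 lost it and 0 reversed. Of the 17, 7 arose with strong local backgrounds left as scanned and 5 without slides 5 and 6. Leaving out 1 array changed the call of 5 of the named probes, ND-B16.6, A_09_P216215, Hsp26, lncRNA:CR31044 and CG34279. Lower signal over background limits the 3 members that were not well above background on all arrays.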
